A study of Mus musculus with 80 samples.

Results

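The subject is a set of 282 sites at which RXR ChIP-Seq peaks recurred in livers of WT mice that had received no drug. All peak intervals of 40 ChIP libraries on chromosomes 1 to 19, X and Y were joined wherever they shared a base, which gave 215015 sites. A site was kept as recurrent when it held a peak in at least 3 of 10 untreated WT livers, 5 on control diet (Control) and 5 on high-fat diet (HFD). The calls and the fold enrichment of these 10 livers therefore chose the sites, and they are given as a description only.

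All mice were C57BL6/J males aged 5 months that had been on their diet for 12 weeks. The 8 groups of 5 livers crossed 2 genotypes with 4 diets: Control, Control with pioglitazone (Pio, an agonist of PPARγ), HFD, and HFD with pioglitazone (HFD-Pio). KO mice lacked PPARγ in the liver, through a Cre driven by the albumin promoter and a floxed PPARγ gene, so that the deletion concerned hepatocytes and not the other cells of the liver. Each library is labelled as a liver of its own. The labels name an RXR antibody (sc-774) in the 20 WT libraries and in KO Control. In the KO libraries of Pio, HFD and HFD-Pio, 15 in all, the antibody field states that none applies, as it does for the inputs, although their titles name RXR.

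RXR binds DNA mainly as a heterodimer with other nuclear receptors, among them the PPARs, LXR, FXR, the retinoic acid and thyroid hormone receptors, CAR and PXR. Such dimers recognise 2 copies of the hexamer AGGTCA in direct repeat, and the number of bases between the copies differs by partner, with 1 base for PPAR. In liver these dimers are known for the control of fatty acid oxidation, lipid storage, cholesterol and bile acids. Tandem repeats, in which a short unit follows itself many times, are a separate class of sequence. GGAAT is the unit of human satellites II and III, and mouse centromeres are flanked by major satellite with subrepeats of about 58 bases.

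The sites fell into 6 sequence groups, and 7 windows of equal length in or beside the summit are shown because each carries a repeat or base composition that the results turn on. Positions are on GRCm38 (mm10), sequences are from the RefSeq genome of that build, and the strand is the one on which the feature was read. In the first 2 windows capitals mark GGAAT units. In the third window they mark GAAAA in a window with major satellite spacing, in the fourth the pyrimidines of a purine-rich strand, in the fifth and sixth CCCTCC, and in the last AGAGG units. GAAAA and CCCTCC were not counted over the sites, and the sequence groups do not rest on them.
chr17:4626311-4626461, minus strand: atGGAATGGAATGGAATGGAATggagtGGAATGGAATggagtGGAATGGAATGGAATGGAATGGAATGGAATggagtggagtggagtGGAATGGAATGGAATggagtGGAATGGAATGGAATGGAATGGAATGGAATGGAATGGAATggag
chr1:12644734-12644884, plus strand: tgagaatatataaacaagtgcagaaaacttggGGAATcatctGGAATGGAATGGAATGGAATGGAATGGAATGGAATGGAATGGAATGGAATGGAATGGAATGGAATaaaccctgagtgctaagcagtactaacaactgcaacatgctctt
chr2:98666737-98666887, plus strand: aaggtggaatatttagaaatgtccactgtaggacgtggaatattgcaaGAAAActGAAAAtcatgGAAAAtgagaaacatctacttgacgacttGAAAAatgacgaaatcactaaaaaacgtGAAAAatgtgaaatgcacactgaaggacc
chr14:28800877-28801027, minus strand: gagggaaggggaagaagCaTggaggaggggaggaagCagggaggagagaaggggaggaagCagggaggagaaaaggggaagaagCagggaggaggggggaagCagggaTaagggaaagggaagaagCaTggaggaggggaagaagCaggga
chr5:140204121-140204271, plus strand: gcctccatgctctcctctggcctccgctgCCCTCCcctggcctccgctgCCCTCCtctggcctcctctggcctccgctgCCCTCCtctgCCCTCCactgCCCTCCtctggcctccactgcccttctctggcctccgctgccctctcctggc
chr2:25628786-25628936, plus strand: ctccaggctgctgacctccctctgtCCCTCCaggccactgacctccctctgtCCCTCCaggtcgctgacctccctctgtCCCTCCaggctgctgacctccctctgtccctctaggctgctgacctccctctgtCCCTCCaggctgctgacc
chrX:146982578-146982728, plus strand: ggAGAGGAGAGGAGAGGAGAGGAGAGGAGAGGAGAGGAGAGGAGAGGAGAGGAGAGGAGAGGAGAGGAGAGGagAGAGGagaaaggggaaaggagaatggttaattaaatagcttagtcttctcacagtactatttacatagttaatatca

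Most sites were not shared between untreated livers. Of the 215015 sites, 186029 held no peak in an untreated WT liver, 27313 held a peak in 1 liver and 1391 in 2 livers. Among the recurrent sites 179 were called in exactly 3 livers, 43 in 4, 17 in 5, 13 in 6, 12 in 7, 4 in 8, 6 in 9 and 8 in all 10. The recurrent sites called per liver were 62, 232, 101, 179 and 47 in Control and 110, 81, 129, 56 and 125 in HFD. Control livers 2 and 4 stood apart, with peaks at 12886 and 7028 sites in all, where the other 8 untreated livers had 575 to 2049. Without these 2 livers, still at 3 livers or more, 91 sites remained recurrent.

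Depth and calling differed between the genotypes. The WT libraries held 2.04 M to 4.26 M tags (M stands for 1e6) after removal of duplicates and were called at a p cutoff of 0.001, and the KO libraries held 0.628 M to 1.06 M tags and were called at a q cutoff of 0.05. Genotype, depth and cutoff cannot be told apart, so that WT and KO values are set side by side without a test. A further 6 WT libraries, 3 of the Pio livers (2, 3, 5) and 3 of the HFD-Pio livers (1, 4, 5), had fragment lengths estimated at 45 to 48 bases. No untreated library had such an estimate, and the lowest among the untreated was 183 bases.

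The threshold of 3 livers cut through sites of like strength. Just inside it lay 3 sites on X with the highest mean fold enrichment among those called in 3 livers, in introns of Htr2c (a serotonin receptor), Chrdl1 (a BMP antagonist) and Btk (a kinase of B cells), with means of 10.3, 7.94 and 6.79. Just outside it, with 2 livers, lay chr9:123461715-123462411 in the 3′ UTR of Lars2, the mitochondrial leucyl-tRNA synthetase, with a mean of 7.61. That site was called in 10 of 10 treated WT livers and in 20 of 20 KO livers. The other 2 sites just outside, chrY:3376406-3376779 and chrX:155690495-155690721, had means of 7.55 and 7.29 and no call in a KO liver.

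The recurrent sites were wider than sites in general and lay in repeated sequence. Their median width was 530.5 bp, with a range of 253 to 29293 bp, against a median of 157 bp over all sites, and 1391 sites with a peak in 2 untreated livers had a median of 352 bp. A site spans all its joined peaks, so that its width can only grow with the number of peaks. The 10306 sites called in at least 10 KO livers had a median of 621 bp, so that such width was not particular to the recurrent sites. At 217 recurrent sites, 77.0%, at least 50% of the bases within 100 bp of the summit were soft-masked, which marks repeats in the reference, against 21.8% of all sites. A tandem pattern, in which at least 60% of the bases were repeated at 1 fixed distance of up to 100 bases, was found at 177 sites, 62.8%, against 6.89% of all sites. A strand with at least 90% A and G was found at 103 sites, 36.5%, against 1.91%.

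Part of this belonged to peaks of untreated WT livers in general. Over the 28986 sites with a peak in at least 1 untreated WT liver, 66.0% were soft-masked to that degree, 34.4% had a tandem pattern and 12.0% were purine-rich. Over the 1391 sites called in 2 such livers the shares were 85.1%, 55.3% and 29.9%. The 50 bases centred on the summit, the read length of the study, occurred once in the genome at 207 recurrent sites, 73.4%, against 93.4% of all sites. Gaps of the assembly lay within 100 kb of 25 recurrent sites, 8.87%, against 1.33%. The bar chart of sequence features sets these shares side by side.

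**Figure D1:**
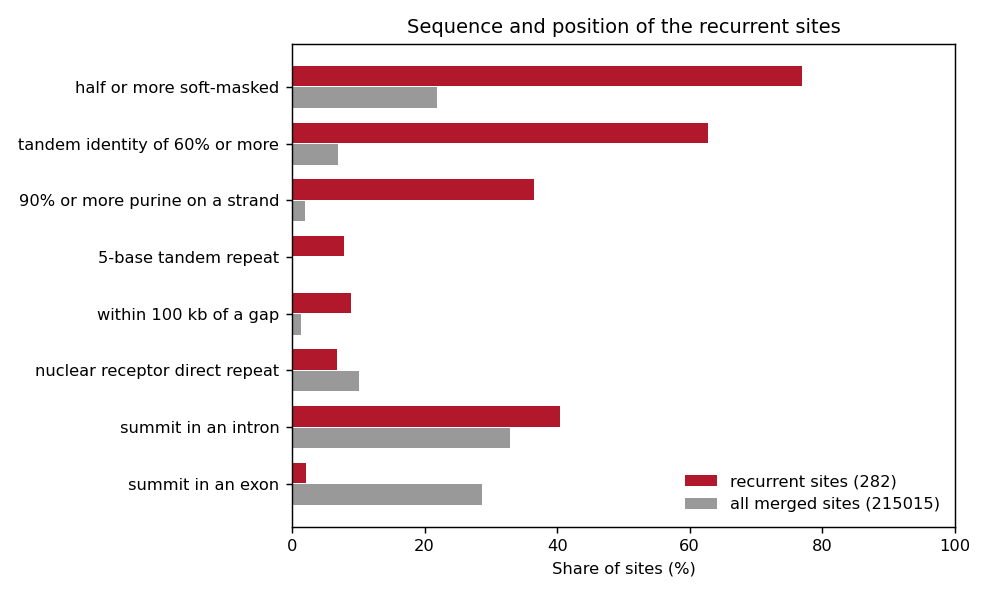
Share of the 282 recurrent sites (red) and of all 215015 merged sites (grey) with each feature of sequence or position, in percent. Soft-masked, tandem and purine-rich sequence was found at 77.0%, 62.8% and 36.5% of recurrent sites against 21.8%, 6.89% and 1.91% of all sites, whereas 2.13% against 28.7% had the summit in an exon.

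The 6 groups were set in a fixed order of precedence. At least 5 unbroken GGAAT units were held by 22 sites, a 15-base word of the primate Alu element by 5, and a purine-rich strand by 102. Spacing of 57 to 60 bases was the best match at 24 sites, whether or not it reached the 60% of a tandem pattern. A further 76 had a tandem pattern at another distance, and 53 remained. In the 91 sites that recurred without Control livers 2 and 4 the numbers in the same order were 20, 5, 19, 16, 16 and 15. The GGAAT and 15-base word groups thus kept 25 of 27 sites, and the purine-rich group kept 19 of 102.

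In the untreated WT livers, whose values chose the sites, GGAAT sites had the highest median fold enrichment of the 6 groups, 6.74, where fold enrichment is the ratio of ChIP tags to the local input background at the summit. In treated WT and KO livers their medians were 7.10 and 10.5, below the 8.12 and 15.4 of the 15-base word sites described next. Perfect runs of at least 5 units, in any register, occurred at 45 places on the 21 chromosomes, and 44 of them, 97.8%, lay in a site of some library. Recurrent sites held 30 of the 45. The 94 other 5-base units had 57760 such runs, of which 2647, 4.58%, lay in a site, and sites covered 1.63% of the sequenced bases. Among the 60 other units with at least 20 runs the median share was 2.85% and the highest was 41.7%, for ACTCC with 10 of 24 runs. In their own register the runs in recurrent sites were 25 to 75 bases long, with a median of 45.

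The strongest recurrent site, chr17:4625941-4626823, lay 368 kb from the start of Arid1b, which encodes a subunit of the SWI/SNF chromatin remodelling complex, and its repeat is the first sequence printed. Its fold enrichment was 29.7, 6.63, 23.0, 16.7 and 42.5 in the 5 WT Control livers and 5.42, 5.57, 13.1, 11.1 and 10.9 in WT HFD. It was 17.9, 7.48, 20.04, 5.29 and 5.63 in WT Pio, and 9.38, 7.75, 10.5 and 4.50 in 4 WT HFD-Pio livers, with no peak in liver 3. All WT groups overlapped. In KO livers it was 104.0, 92.9, 55.8, 91.9 and 53.3 in Control, 30.5, 120, 47.3, 65.6 and 27.3 in HFD, 25.4, 13.1, 49.6, 35.4 and 49.5 in Pio, and 33.0, 43.7, 16.3, 29.3 and 9.05 in HFD-Pio. KO Control and KO Pio did not overlap, with 53.3 as the lowest of the first and 49.6 as the highest of the second.

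The second site, chr1:12644530-12645090, lay 47.5 kb from the start of Sulf1, an extracellular sulfatase of heparan sulfate. Its means were 9.68 ± 5.27 in WT Control and 6.31 ± 1.01 in WT HFD (SD, n = 5), and 28.01 ± 6.70 in KO Control and 19.6 ± 6.16 in KO Pio (SD, n = 5). WT HFD-Pio liver 3 again had no peak there. Of the 22 GGAAT sites that liver called 0, and the other HFD-Pio livers called 17, 8, 18 and 7. In WT Control 22, 7, 22, 16 and 20 were called, so that the 2 libraries with the most peaks, livers 2 and 4, had the fewest. WT HFD livers called 3, 10, 13, 9 and 8 of the 22.

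GGAAT sites recurred in KO livers as well. All 22 were called in some KO liver, against 48.6% of all sites, and 21 in at least 10 of 20, against 4.79%. The median of the 22 was 19 KO livers. KO Control livers called 22, 22, 20, 22 and 21, and KO HFD-Pio livers 20, 20, 13, 16 and 10. The third site, chr17:56199770-56200333 in an intron of Dpp9, a serine protease of the dipeptidyl peptidase family, was called in all 10 untreated WT livers at 4.07 to 14.5 and in 13 of 20 KO livers at 2.71 to 15.8. Another, chr6:132463470-132464053, was called in 9 untreated WT livers at 2.87 to 23.3 and in 20 of 20 KO livers at 5.70 to 25.0. Of the 22 sites 19 lay outside genes and their flanks, and 3 in introns, of Dpp9, Ano2 (a calcium-activated chloride channel) and Myo7a (an unconventional myosin). The latter gene falls outside the rule for naming and was added after its values were seen.

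**Figure D2:**
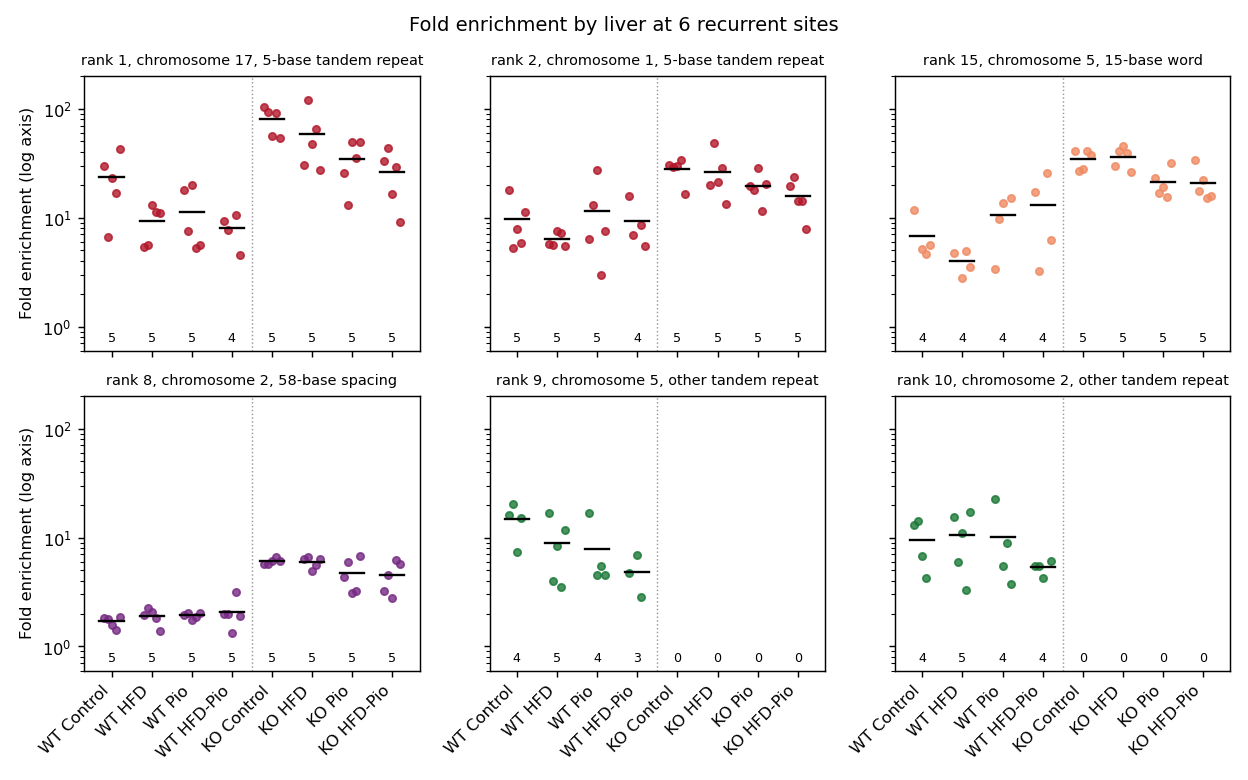
Fold enrichment over input (log axis) at 6 recurrent sites in each liver with a peak, by group of 5 livers, with the mean as a line and the number of livers with a peak at the foot. The GGAAT site of rank 1 reached 120 in a KO HFD liver, the sites of ranks 9 and 10 had no peak in any KO liver, and the 58-base spacing site of rank 8 stayed between 1.33 and 6.80.

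The 15-base word was found at 5 recurrent sites, all of them in introns. All 5 were called in 20 of 20 KO livers, against 0.921% of all sites. Alu and the mouse B1 element both descend from the RNA of the signal recognition particle, and the word of the mouse B1 differs from it. The hosts were Acacb, the acetyl-CoA carboxylase of mitochondria that limits fatty acid oxidation, Lipc, the hepatic lipase, Ybx3, a cold shock domain protein, Izumo1, a sperm protein of gamete fusion, and Fam227b. The genome held 4577 copies of the word, and 193 of them, 4.22%, lay in a site. The corresponding B1 word had 105644 copies, of which 0.655% lay in a site. The word was thus a common sequence of which few copies were called.

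At the Acacb site, chr5:114172870-114173408, fold enrichment was 11.6, 5.14, 4.66 and 5.63 in WT Control livers 1, 3, 4 and 5, with no peak in liver 2. It was 4.74, 2.78, 4.95 and 3.51 in WT HFD livers 1, 3, 4 and 5, again with no peak in liver 2. In WT Pio it was 3.38, 9.71, 13.7 and 15.05 in livers 1, 2, 3 and 5, and in WT HFD-Pio 17.2, 3.23, 25.6 and 6.27 in livers 1, 2, 4 and 5. The values of the untreated and treated WT livers overlapped, and the 6 highest treated values were those of the 6 libraries with the short fragment estimate. In KO livers the means were 34.8 ± 6.87 in Control, 36.1 ± 7.98 in HFD, 21.2 ± 6.61 in Pio and 20.8 ± 7.75 in HFD-Pio (SD, n = 5). All 5 sites were called in each of the 6 WT libraries with the short estimate, whereas the other 4 treated WT libraries called 5, 0, 3 and 1. Their part in these values was not tested.

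The 24 sites with spacing of 57 to 60 bases as the best match had the lowest enrichment, with a median of 2.07 in untreated WT livers where GGAAT sites had 6.74. Of the 24, 14 had at least 60% of the bases repeated, and the lowest share was 40.8%. Within 100 kb of an assembly gap lay 10 of the 24. The only site called in all 40 libraries was of this group, chr2:98666109-98667443, in a coding exon of the predicted gene Gm10800. Its fold enrichment ranged from 1.398 to 2.27 in untreated WT livers, from 1.33 to 3.18 in treated WT livers and from 2.79 to 6.80 in KO livers. The ranges of the WT and KO livers overlapped only between 2.79 and 3.18. The widest recurrent site, chr9:3009123-3038415 with 29293 bp, was called in all 20 WT livers and in 19 of 20 KO livers, at 1.48 to 3.31 in WT and 1.75 to 5.42 in KO.

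Neighbouring sites of this group differed between the genotypes in their calls. In the run of 3 sites at chr9:2999894-3038415, the middle one, chr9:3005574-3008922 in an intron of the predicted gene Gm11168, was called in all 20 WT livers and in 0 of 20 KO livers. Its fold enrichment was 1.496 to 2.42 in untreated and 1.32 to 3.09 in treated WT livers. Its neighbours on either side were called in 18 and 19 KO livers. In all, 29 recurrent sites stood in 11 runs with under 50 kb between members, so that the 282 sites made up 264 separate places.

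Purine-rich sites were the largest group, and nearly all of their calls were in WT livers. Of the 102 sites 101 had no KO call, against 51.4% of all sites. No call in a treated WT liver was found at 63 of the 102, where 57.6% of all sites had none. Of the 28986 sites with an untreated WT peak, 28464 had no KO call and 27122 no treated WT call. The lack of such calls was thus not particular to the purine-rich group. The livers of WT Control called 7, 97, 26, 60 and 4 of them, and those of WT HFD 40, 17, 42, 11 and 51. Control livers 2 and 4 were here the highest of their group, the reverse of the order at GGAAT sites. Median enrichment in untreated WT livers was 4.56, close to the 4.11 of all sites with an untreated call.

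The 5 sites in the naming rule with most untreated calls and no treated call were led by chr14:28800716-28801595, of which the purine strand is printed. It had fold enrichment of 8.997 and 4.30 in Control livers 2 and 3 and of 4.74, 6.22 and 4.79 in HFD livers 1, 3 and 5. The next, chr6:144885141-144885677, 103 kb from the start of Sox5 (a transcription factor of cartilage), had 5.96 and 2.91 in Control livers 2 and 4 and 4.87, 5.53 and 8.21 in HFD livers 2, 3 and 5. Another of the 5, chr12:4276182-4277023, lay in an intron of Ncoa1, a coactivator of nuclear receptors, and was called in 4 untreated livers at 4.79 to 5.87. Each was called in only part of its group, and none of the 3 had a call in the other 30 libraries.

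No KO call was found at 51.4% of all sites and at 28464 of the 28986 sites with an untreated WT peak. Other tandem repeats were found at 76 sites, of which 71 had none. The sites of ranks 9 and 10, each called in 9 untreated WT livers, belonged to this group. The first, chr5:140203926-140204601, lay in an intron of Mad1l1, a component of the mitotic spindle checkpoint, and its 20-base repeat is printed. Its fold enrichment was 16.1, 20.1, 7.32 and 15.2 in Control livers 1 to 4, and 16.9, 4.003, 8.44, 3.51 and 11.8 in the HFD livers. It was 16.7, 4.56, 5.44 and 4.54 in Pio livers 1, 3, 4 and 5, and 4.69, 6.93 and 2.82 in HFD-Pio livers 1, 3 and 4. Control liver 5, Pio liver 2 and HFD-Pio livers 2 and 5 had no peak there, and the ranges of the 4 groups overlapped.

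The second, chr2:25628600-25629095, lay 831 bp upstream of Fcna, the ficolin A of the lectin complement pathway. CCCTCC recurred at shorter steps in its printed window, and the best tandem match of the site was at a distance of 81 bases. Its fold enrichment was 12.997, 14.2, 6.71 and 4.23 in Control livers 1 to 4 and 15.6, 6.02, 11.1, 3.28 and 17.1 in HFD. In Pio livers 1, 3, 4 and 5 it was 22.4, 5.47, 8.88 and 3.75, and in HFD-Pio livers 1, 2, 3 and 5 it was 5.52, 5.43, 4.22 and 6.15. No KO liver had a peak at either site, at the lower depth and stricter cutoff of the KO libraries.

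**Figure D3:**
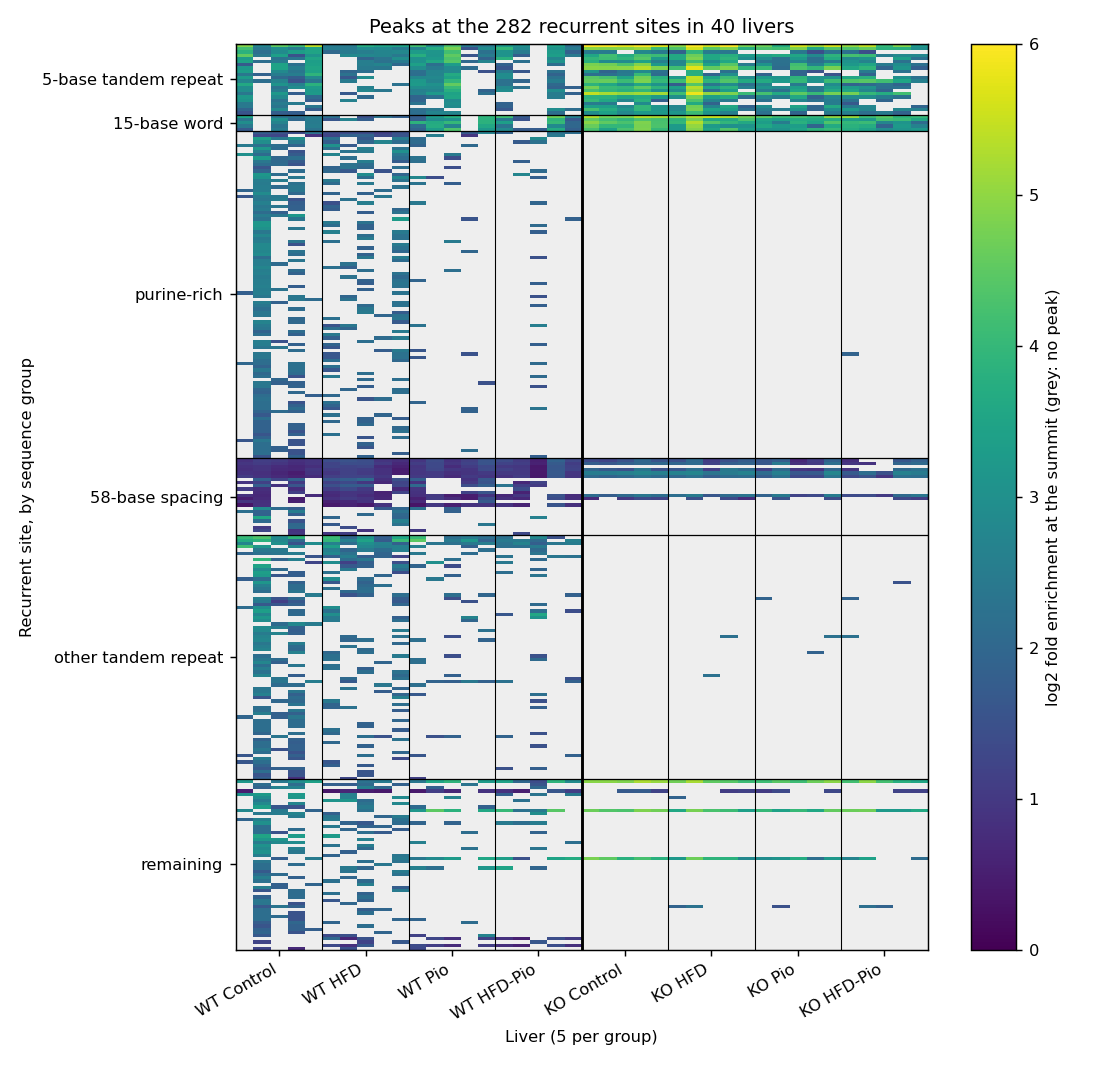
Log2 fold enrichment at the 282 recurrent sites (rows, grouped by sequence) in 40 livers (columns, 5 per group, WT to the left of the heavy line), with grey for no peak. GGAAT and 15-base word sites carried peaks in WT and KO livers, whereas 101 of 102 purine-rich and 71 of 76 other tandem sites had no peak in any KO liver. The same held for 28464 of the 28986 sites with an untreated WT peak.

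Part of the recurrent sites lay on the sex chromosomes. X held 18 of the 282 recurrent sites and 5231 of all sites, and Y held 15 and 1142. The Y sites had no KO call in 15 of 15 cases, against 51.4% of all sites. Of the 28986 sites with an untreated WT peak 28464 had none, so that this was not particular to Y. A tandem pattern was found at 14 of the 15, against 6.89% of all sites and 62.8% of the recurrent sites. The strongest of the Y sites, chrY:88092393-88093219, was called in 9 untreated WT livers at 2.85 to 7.93 and in 9 treated ones at 3.52 to 6.47. The 50 bases at its summit occurred 5280 times on the 21 chromosomes, so that a read of those bases could not be placed at 1 copy. Over the 15 sites the median was 28 copies, and at 2 of the 15 the 50 bases occurred once.

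On X the sites were narrow and shared a different unit. A perfect run of AGAGG lay in 14 of the 18 X sites, 83 to 111 bases long, with the nearest end 10 to 117 bases from the summit. These 14 sites were 253 to 367 bp wide, with a median of 295, and the last sequence printed shows the border of such a run. X carried 251 runs of at least 5 units, of which 5.58% lay in recurrent sites, and the autosomes carried 4233, of which 0.142% did. The shares that lay in a site of any library were alike, at 18.3% on X and 16.2% on the autosomes, where single chromosomes ranged from 8.71% to 22.8%. The runs of the recurrent X sites were longer, with a median of 93.5 against 63 bases for all X runs.

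The calls at the 14 X sites were spread unevenly over the WT livers. In Control 2, 14, 5, 8 and 0 of them were called, in HFD 7, 2, 7, 0 and 5, in Pio 1, 1, 2, 2 and 0, and in HFD-Pio 0, 2, 3, 0 and 1. A single KO liver called 1 of them, where 522 of the 28986 sites with an untreated WT peak had a KO call. The site in an intron of Htr2c, chrX:146982553-146982840, had fold enrichment of 11.4 and 9.89 in Control livers 2 and 4 and of 9.66 in HFD liver 1. The narrowest recurrent site, chrX:164245077-164245329 in an intron of Bmx, a kinase related to Btk, had 8.29 in Control liver 2 and 4.90 and 5.80 in HFD livers 1 and 3.

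Of the 53 remaining sites 47 had no KO call, against 51.4% of all sites and 28464 of the 28986 with an untreated WT peak. Against 4.79% of all sites, 4 of the 53 were called in at least 10 KO livers. One of these, chr2:16682836-16683391 in an intron of Plxdc2, a membrane protein with a plexin domain, had fold enrichment of 9.04, 5.30, 7.56 and 10.6 in WT Control livers 1, 3, 4 and 5. In the 20 KO livers it ranged from 11.7 to 37.5, above every WT Control value, and in 9 treated WT livers from 2.64 to 14.97, which overlapped the KO range. Another, chr8:109707177-109707705 in an intron of the zinc finger gene Zfp821, had 3.79 to 6.88 in 4 untreated WT livers, 4.78 to 22.4 in 8 treated ones and 9.27 to 28.6 in the 20 KO livers. Neither held GGAAT units, the 15-base word or a tandem pattern.

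In the livers that the rule had not used, a larger share of the recurrent sites than of all sites was called. The mean share of the 282 sites called per liver was 19.9 ± 5.67% in WT Pio and 16.5 ± 3.39% in WT HFD-Pio (SD, n = 5), against 6.05 ± 5.33% and 5.18 ± 3.996% of all sites. In the livers used by the rule it was 44.0 ± 28.03% in Control and 35.5 ± 11.02% in HFD. In KO livers the share was 13.05 ± 0.297% in Control, 12.5 ± 1.19% in HFD, 12.2 ± 0.925% in Pio and 10.8 ± 1.89% in HFD-Pio (SD, n = 5), against 6.96% to 9.29% of all sites. These KO means came from few sites: 236 of 282, 83.7%, had no KO call, against 51.4% of all sites, and 37, 13.1%, were called in at least 10 KO livers, against 4.79%. Of the 28986 sites with an untreated WT peak, 28464 had no KO call and 153 were called in at least 10 KO livers. Recurrent sites were thus called in KO livers more often than sites with an untreated WT peak in general. Of the 37 the GGAAT and 15-base word groups held 26. The order of the groups depended on the peaks and sites used. With peaks of at least 5-fold enrichment the sites were chosen again, so that the shares are of a smaller set than the 282. In that set the share was 43.7% in KO Control and 33.9% in WT Pio, whereas HFD-Pio livers of WT mice had 18.8% and their HFD livers 29.8%.

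Calls in the treated WT livers were also counted site by site. No call in any of the 10 treated WT livers was found at 131 sites, 46.5%, against 57.6% of all sites, and 47 sites were called in at least 5, 16.7% against 1.69%. At least 3 of 5 livers had a peak at 47 sites in WT Pio, 16.7% against 1.84% of all sites, at 37 in WT HFD-Pio, 13.1% against 1.03%, and at 38 in KO Control, 13.5% against 4.24%. No peak in any of the 30 other livers was found at 128 sites, 45.4%, against 12.4% of all sites. Such a site must hold an untreated WT peak, and of the 28986 sites with one, 26733 had no peak in the other livers. No treated WT call was found at 27122 of the 28986. By group, GGAAT sites were called at 68.2 ± 34.0% in WT Pio and 97.3 ± 4.07% in KO Control, and purine-rich sites at 6.27 ± 4.63% and 0% (SD, n = 5).

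**Figure D4:**
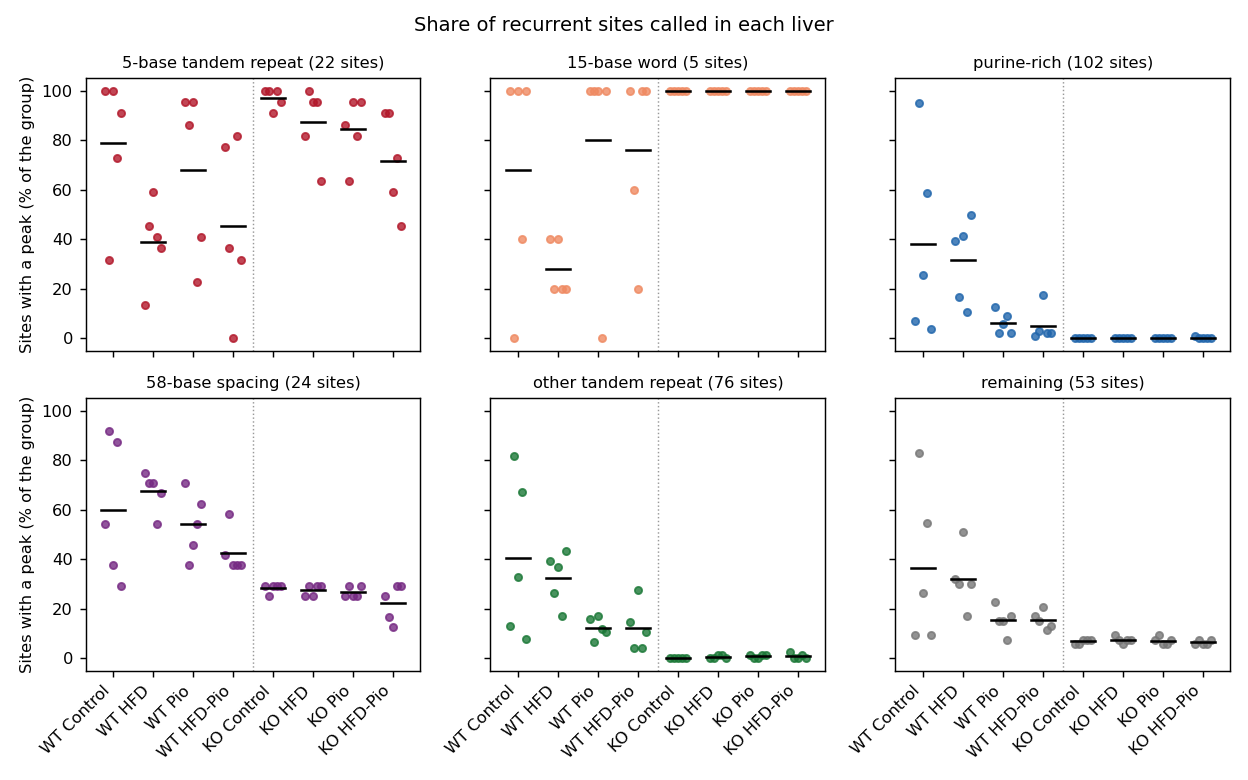
Percent of the sites of each sequence group with a peak in each liver, for 8 groups of 5 livers, with the mean as a line. GGAAT and 15-base word sites were called in most KO livers, whereas purine-rich sites were called at 38.0% and 31.6% on average in WT Control and HFD, 6.27% in WT Pio and 0% in KO Control livers.

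Few recurrent sites lay in exons. By their summits 6, 2.13%, lay in exons against 28.7% of all sites, 114, 40.4%, in introns against 32.9%, and 151, 53.5%, outside genes and their flanks against 35.9%. A further 10 lay within 5 kb upstream and 1 within 1 kb downstream of a protein-coding gene. The exonic ones were 5 coding exons of the predicted genes Gm10801, Gm10800, Gm11168 and Gm21738, all with spacing of 57 to 60 bases, and the 3′ UTR of Slc30a4, a zinc transporter. The median distance to the nearest protein-coding start was 57.1 kb, against 42.7 kb over all sites. It was 78.6 kb over the 28986 sites with a peak in an untreated WT liver. Over the 1391 sites called in 2 such livers it was 75.2 kb.

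The nearest genes were also compared with lists of RXR biology. Lists of 142 genes in all were used, with some genes in more than 1 list, of targets of PPAR (39), LXR (20), FXR (19) and other partners (21), of RXR and its partner receptors (21), and of abundant liver transcripts (30). None of the 282 sites had a listed gene as its nearest within 20 kb. Over all sites 431, 0.2005%, did, at 118 genes, and at that share fewer than 1 of 282 would have one, so that the count of 0 is no result about the recurrent sites. The nearest approach was chr19:23054084-23054567 at 86.8 kb from Klf9, a thyroid hormone target, followed by chr14:17924229-17924742 in an intron of Thrb, the thyroid hormone receptor β, 264 kb from its start. Both were called in exactly 3 untreated WT livers and in 0 KO livers.

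Direct repeats of AGGTCA were sought at the recurrent sites and at all sites. With 0 to 5 bases between the copies, on both strands and with at most 2 mismatches over the pair, they lay within 100 bp of the summit at 19 sites, 6.74% (exact binomial 95% interval 4.10 to 10.3%), against 10.1% of all sites. The 10.1% of all sites lay inside that interval, so that the count of 19 is no result about the recurrent sites. The spacing of 1 base was found at 2 sites, 0.709% against 2.25%. These were chr4:141750294-141751046 in an intron of Agmat, an agmatinase, called in 7 untreated WT livers, and chr9:77532375-77532942 in an intron of Lrrc1, called in 3. Neither had a KO call. A match of letters is not a bound element, and the windows were rich in simple sequence.

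The first test asked whether Pio changed fold enrichment at these sites in KO livers on control diet. Sites called in all 10 livers of KO Pio and KO Control were fitted with limma on log2 values after subtraction of the median of each liver, and 2508 sites were tested. Without that subtraction the median difference over all sites was 0.12. Recurrent sites made up 28 of them, and the other 254 could not be tested. Calls at an adjusted p below 0.05 and at least 2-fold were made at 0.478% of the 2508 sites, 12 sites, all lower in KO Pio, and 6 of the 12 were recurrent sites. All 28 were lower, except that 1 of 28 was higher when replicate 4 was left out, with a median of -0.90 against -0.00 over all sites tested. At an unadjusted p below 0.05 in limma stood 23 of the 28, against 6.58% of all sites.

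The called site of rank 1 on chromosome 17 had a log2 difference of -1.43 (SE 0.29, limma adjusted p = 0.0224), with the per-liver values given above. At chr6:10186156-10186927, another GGAAT site, fold enrichment was 26.9, 16.5, 15.8, 22.7 and 14.9 in KO Control and 8.41, 6.995, 10.1, 5.30 and 9.77 in KO Pio. The log2 difference was -1.38 (SE 0.25, limma adjusted p = 0.01005), and the groups did not overlap. At the GGAAT site chr14:104336709-104337254 the values were 43.3, 37.4, 32.4, 35.5 and 35.9 in KO Control and 18.8, 12.3, 22.9, 16.6 and 27.0 in KO Pio. That difference was -1.09 (SE 0.20, limma adjusted p = 0.0102), again without overlap.

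In the Lipc intron, chr9:70805937-70806480, fold enrichment was 30.3, 22.7, 19.3, 28.6 and 19.2 in KO Control and 10.2, 5.72, 14.05, 11.1 and 20.5 in KO Pio. The log2 difference was -1.18 (SE 0.27, limma adjusted p = 0.0491), and the highest KO Pio liver exceeded the 2 lowest KO Control livers. In the Izumo1 intron, chr7:45623440-45623969, it was -1.31 (limma adjusted p = 0.0445), from 20.7 ± 5.42 in KO Control to 9.604 ± 3.46 in KO Pio (SD, n = 5). In the intron of Auts2, a gene of neural development, chr5:131519483-131520033 fell by 1.34 on the log2 scale (limma adjusted p = 0.0230), from 19.5 ± 5.87 to 8.55 ± 3.07 (SD, n = 5). Apart from the site of rank 1, the called sites fall outside the naming rule and were chosen after their values were seen.

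By sequence group the 14 GGAAT sites tested had a median log2 difference of -1.09, the 5 sites of the 15-base word -0.86, the 3 remaining sites -0.78 and the 6 sites with spacing of 57 to 60 bases -0.39. The calls depended on single livers: without replicate 1 or without replicate 4 of both groups limma called 0 recurrent sites, and without replicate 2 it called 1, while 12 and 13 were called without replicate 3 and 5. The inputs of KO Pio held 2.81 M to 5.98 M tags and those of KO Control 4.48 M to 7.19 M, and the antibody field differed between the groups. Their part in the difference was not tested.

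**Figure D5:**
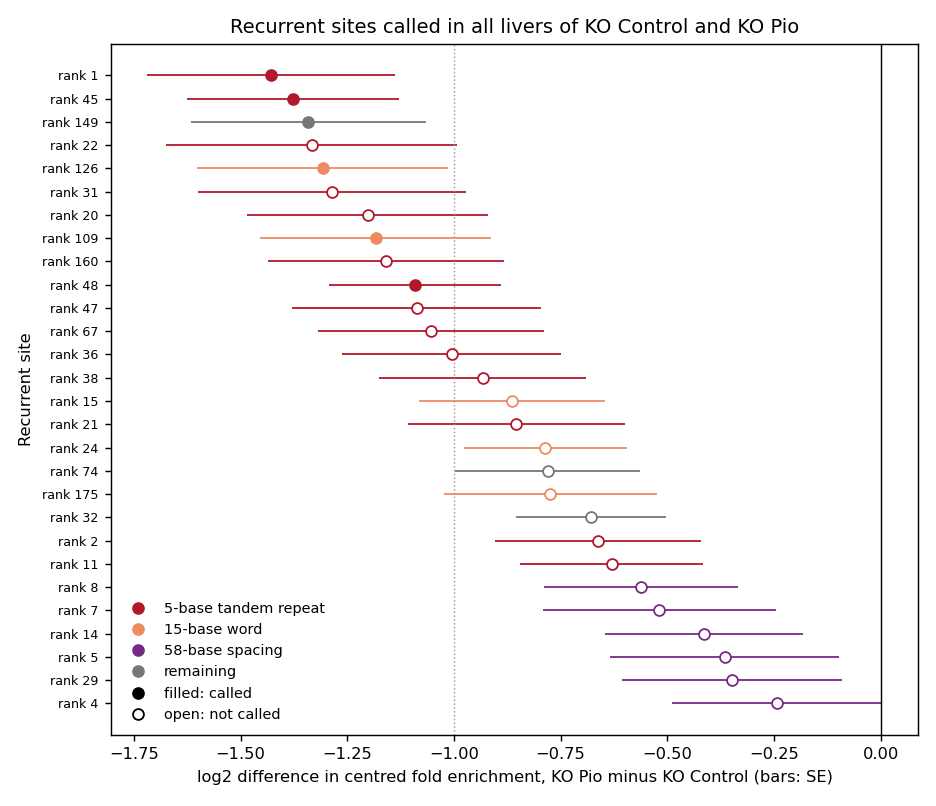
Log2 difference in centred fold enrichment between KO Pio and KO Control (5 livers each, bars show the SE of limma) at the 28 recurrent sites called in all 10 livers, ordered by size and coloured by sequence group, with filled points for the 6 sites called. All 28 points lie below 0, with GGAAT and 15-base word sites from -1.43 to -0.63 and 58-base spacing sites from -0.56 to -0.24.

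On HFD the tested sites were also lower with Pio in KO livers, but none was called with the settings of the first test. Of 2775 sites tested, limma called 0%, none of them recurrent, and 5.33% had an unadjusted p below 0.05. Among the 16 recurrent sites tested, 6 did, all 16 were lower in HFD-Pio, and the median was -0.44 against -0.02 over all sites. The smallest limma adjusted p among them was 0.0797, at the GGAAT site chr11:25099856-25100383, with a log2 difference of -1.71 (SE 0.34). Its fold enrichment was 17.97, 53.8, 23.5, 29.0 and 14.8 in KO HFD and 12.2, 15.1, 3.80, 8.67 and 3.49 in KO HFD-Pio, where 1 value of HFD-Pio lay above the lowest of HFD. With other settings limma called some: 2 recurrent sites without replicate 1 of both groups and 1 without centring. It called 1 when a call in 4 of 5 livers per group sufficed, and 1 with the replicate number as a term of the fit. Whether the effect of Pio differed between the diets was not tested.

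Diet without drug gave no call in KO livers. KO HFD and KO Control were compared at 2282 sites with 0% called by limma and 4.47% at an unadjusted p below 0.05. Of the 28 recurrent sites tested, 7 stood below that value, 27 were lower in HFD, and the median was -0.35. Without replicate 2 of both groups 1 recurrent site was called. This comparison shares its KO Control livers with the one of Pio. KO HFD-Pio and KO Pio were compared at 3251 sites, with 0% called and 5.44% at an unadjusted p below 0.05, and of the 16 recurrent sites tested 1 stood below it and the median was -0.07. The smallest limma adjusted p among recurrent sites was 0.994 in the first and 0.878 in the second of these comparisons.

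In treated WT livers only recurrent sites with spacing of 57 to 60 bases were called in all 10, so that 6 recurrent sites could be tested between HFD-Pio and Pio. Of 185 sites limma called 0%, and 1.62% had an unadjusted p below 0.05. The 6 differences ranged from 0.18 to 0.32, with SEs of 0.55 to 0.59, and the smallest limma adjusted p was 0.985. Without centring, 3 of the 6 were above 0, and the median over the 185 sites was -0.25 in place of 0.01.

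The number of livers with a peak was compared by a two-sided Fisher's exact test at sites called in at least 3 of 10 livers. With 5 livers against 5 the test can give no p below 0.00794, and from 5967 to 21580 sites were tested. A call after adjustment would thus need very many sites at that p. In each of the 5 comparisons 0% of sites passed, from which no conclusion is drawn. The shares of all sites at an unadjusted p below 0.05 were 0.402% for WT HFD-Pio against Pio, 2.35% for KO Pio against Control, 1.16% for KO HFD-Pio against HFD, 0.813% for KO HFD against Control and 1.49% for KO HFD-Pio against Pio. Of the recurrent sites tested, 60, 38, 39, 38 and 38 in the same order, 0 were below that value. At such low shares and with so few tested, the 0 is no result about the recurrent sites. In the same order 32, 9, 19, 9 and 17 recurrent sites were called in fewer livers of the first group than of the second, and 12, 0, 0, 0 and 3 in more. A site called in all 5 livers of the second group cannot be called in more livers of the first. The directions were not counted over all sites tested, so that no conclusion is drawn from these counts.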

How the data were processed

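RXR ChIP-Seq was done on 40 mouse livers, 5 in each of 8 groups, with an input library for each that was not used here. The authors aligned single reads to mm10 with Novoalign and called peaks per library against its own input with MACS2 2.1.1.20160309. As deposited, each peak has a pileup signal at its summit, a fold enrichment ratio over the local input background, and −log10 p and −log10 q values. Per the file headers, the cutoff was a p of 0.001 for WT and a q of 0.05 for KO livers. The narrowPeak version held the same peaks in 40 of 40 libraries. No column belonged to no sample (0), and at most 0.557% of the intervals of 1 library were identical in another.

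Peaks were merged into sites with Python 3.11.15, pandas 2.3.3 and numpy 2.4.6, and plots were drawn with matplotlib 3.10.9. A site's fold enrichment in a liver is that of its highest peak there, and means are over livers with a peak. Genes and places are from GENCODE M21. Sequence features were read within 100 bp of the summit of the strongest untreated WT peak (of any peak where there was none), and the GGAAT runs, the 15-base word and AGAGG runs over the whole site. The best tandem match was sought over distances of up to 100 bases. Fold enrichment was compared with limma 3.58.1 in R 4.3.3, with Benjamini-Hochberg adjustment over all sites tested, and livers called with Fisher's exact test in scipy 1.17.1. Both were tested on simulated data. The authors' own differential test (edgeR through DiffBind) used read counts, which peak lists do not give. P-values measure the spread between the 5 livers of a group.

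The recurrent sites, gene lists and sequence groups were chosen with earlier results of these data known. Named sites were the 15 called in most untreated WT livers, the 5 others called in most treated WT livers, the 5 others called in most KO livers, the 5 called in most untreated livers with no treated call, the widest and the narrowest, and the 3 on each side of the threshold. The purine-rich and X sequences, the AGAGG runs and the sites named beside them were chosen after their values were seen. Alternatives were other numbers of livers, stricter peaks, summits joined in place of intervals, wide sites left out, other mismatches and windows, no centring, calls in 4 of 5 livers, a replicate block, and each replicate left out. Leaving out WT Control livers 2 and 4 together was chosen after seeing the data. A sequence window of the 15-base word group is not reported here.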

Additional observations from a re-analysis of the deposited data

Results flagged for a closer look

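In 5 of 101 groups of 4 or 5 values tested at the named sites, 1 liver lay far from the rest of its group, and chance gives about 1 in 20. At chr5:114172870-114173408 in the intron of Acacb, WT Control liver 1 had a fold enrichment of 11.6 where the others had 4.66 to 5.63. At chr5:140203926-140204601 in the intron of Mad1l1, WT Pio liver 1 had 16.7 where the others had 4.54 to 5.44. At chr17:56199770-56200333 in the intron of Dpp9, KO Control liver 4 had 6.84 where the others had 5.46 to 5.62, and KO HFD liver 2 had 15.8 where the others had 3.69 to 5.63. KO HFD liver 2 also stood apart at chr6:132463470-132464053, with 25.0 where the others had 9.64 to 13.6.

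Outside the 21 chromosomes, 17 unplaced contigs held peaks in at least 3 untreated WT livers, 2 of them in all 10, and 3 held peaks in at least 10 KO livers. The 40 libraries had 2247 peaks on unplaced contigs in all.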

How the results depend on the processing

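The number of recurrent sites depended on the rule. It was 1673 at 2 livers or more, 103 at 4 or more and 60 at 5 or more, 124 with peaks at q up to 0.05, 36 at −log10 q of at least 5, and 49 at a fold enrichment of at least 5. It ranged from 132 (without WT Control liver 2) to 270 with 1 liver left out, was 179 without WT Control liver 4, and was 91 without both, a setting chosen after seeing the data.

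The mean share called per liver at 4 livers or more was 55.0% in WT HFD, 39.4% in WT Pio, 31.8% in WT HFD-Pio, 28.3% in KO Control, 26.4% in KO HFD, 26.4% in KO Pio and 22.9% in KO HFD-Pio. At q up to 0.05 it was 31.3%, 22.7%, 25.6%, 23.9%, 23.4% and 20.3% in the last 6 of these groups. At a fold enrichment of at least 5 it was 33.9% in WT Pio, 43.7% in KO Control, 39.2% in KO HFD, 34.7% in KO Pio and 28.2% in KO HFD-Pio. Without sites wider than 1 kb it was 12.7% in KO Control. The direct repeat share was 0.709% with at most 1 mismatch, against 1.06% of all sites, and 2.84% within 50 bp, against 4.68%.

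For KO Pio against KO Control limma called 10 recurrent sites when 4 of 5 livers sufficed, 9 without centring, and 0 to 13 with 1 replicate left out. For KO HFD-Pio against KO HFD it called 1 when 4 of 5 livers sufficed, 1 without centring, and 0 to 2 with 1 replicate left out, and for KO HFD against KO Control 0 to 1, the 1 without replicate 2. Same-numbered livers shared only a number, with correlations of their deviations from -0.32 to 0.18, and with the replicate block limma called 5 sites for KO Pio against KO Control, 1 for KO HFD-Pio against KO HFD and 0 in the other comparisons. Of 171 alternatives, 130 stayed within the limits set for each value and 41 moved past them. The cause was not tested. Fold enrichment is given only where a peak was called, so lower values were not seen, and the low depth of the KO libraries limits what a missing call there means.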
